A study of Homo sapiens with 18 samples.

Results

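DEAD-box and DEAH-box RNA helicases are 2 related enzyme families, named in most cases with the symbols DDX and DHX. The members were taken as the protein-coding genes whose symbol is DDX or DHX followed by a number, without DDX58 and DHX58, the receptors RIG-I and LGP2, which sense viral RNA. Of 53 such genes, 48 reached a normalised value of at least 10 in at least 3 of 18 libraries and were tested, among 15228 genes tested in all. The comparisons asked whether any other helicase was higher where a guide RNA had been directed at DDX3X.

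These enzymes bind RNA and use ATP to unwind short duplexes, to remodel RNA-protein complexes or to hold proteins on RNA. Individual members act at nearly every step of an RNA's life, from transcription and splicing through export and ribosome assembly to translation, storage and decay. DDX3X, a DEAD-box helicase encoded on the X chromosome, helps ribosomes start on mRNAs with structured leaders, and its Y-linked relative DDX3Y encodes a very similar protein.

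Gene expression was measured in KNS-42, an established glioma cell line, in which all cells carried the nuclease Cas9 and grew with puromycin. The cells had no further transgene (parental), one for DDX3X (DDX3Xoe) or one for DDX3Y (DDX3Yoe), both with altered codons. Lentivirus brought in guide 395, directed at the endogenous DDX3X gene, or a guide against AAVS1, a control site. RNA was taken on day 7, and the 6 groups held 3 libraries each. The sources used here do not give the promoters of the transgenes or say whether a line was 1 clone. Nor do the labels tell whether replicates were separate cultures, and p-values cover only the spread among these libraries, which may be technical. In such bulk samples fewer cells of a kind and less RNA per cell cannot be told apart.

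The libraries held 5667609 to 13201602 reads on genes, with a median of 8851664. Reads came from the 3′ ends of transcripts, and levels were not corrected for length. How fully the 3′ end of each gene was counted was not tested. The order of genes by level and shares of reads below carry that limit. Values are reads divided by the deposited size factor of the library, called normalised reads here. Of the glioma and neural progenitor markers, SOX2, NES, VIM, GFAP, FABP7, PDGFRA, EGFR and CD44 had reads in all 18 libraries, while OLIG2 and S100B were at 0 in all of them and NCAM1 in 14. Of the leukocyte, epithelial, endothelial and hepatic markers, CD68 had the highest value, 178 normalised reads.

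DDX60 and DDX60L are neighbouring genes on chromosome 4 that interferon induces, and their promoters are shown because they carry a feature the naming rule did not use. The 250 bases before each start are shown 5′ to 3′ on the minus strand, from RefSeq on GRCh38.p14, at chr4:168318753-168319002 for DDX60 and at chr4:168480493-168480742 for DDX60L, whose RefSeq start lies within the longer gene that GENCODE gives at chr4:168356735-168537786. Capitals mark GAAA followed after any 2 bases by a further GAAA, a form of the interferon-stimulated response element, searched on both strands.
DDX60: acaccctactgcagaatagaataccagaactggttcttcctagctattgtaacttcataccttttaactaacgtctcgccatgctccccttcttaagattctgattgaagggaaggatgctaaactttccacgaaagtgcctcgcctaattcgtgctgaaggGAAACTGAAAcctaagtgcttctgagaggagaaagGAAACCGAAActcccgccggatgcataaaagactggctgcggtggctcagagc
DDX60L: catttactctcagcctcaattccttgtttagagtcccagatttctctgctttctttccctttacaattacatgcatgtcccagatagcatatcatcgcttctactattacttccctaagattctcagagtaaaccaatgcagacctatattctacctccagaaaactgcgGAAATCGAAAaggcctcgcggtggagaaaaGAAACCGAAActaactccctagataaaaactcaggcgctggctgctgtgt
Each of these promoters held the motif 2 times. Of the members, 49 had a promoter in the table, and DHX15 was the only other one with the motif, held 1 time. Over all 35116 promoters of that length, 3.02% held it. A match of letters is a description and not a shown binding site.

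The 5 other genes named by the rule did not reach the minimum. DDX3Y, DDX4, a germline marker, DDX43 and DDX53 were at 0 reads in all 18 libraries, and in the shallowest library a count of 0 allows up to 3 reads, or 0.529 CPM of reads on genes, for counting error only. The 0 for DDX3Y included the DDX3Yoe libraries, and whether reads of a codon-optimised transgene could be counted under its gene was not tested. DDX47, an rRNA processing factor that overlaps APOLD1 on the same strand, had at most 2.58 normalised reads. The member nearest to the minimum from above was DDX25, a helicase of germ cells, which reached 10 in 14 libraries and had at most 58.0 normalised reads.

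Levels of the 48 members spanned a wide range in parental cells with the AAVS1 guide. The transcription and splicing cofactor DDX5 was the most abundant, at 3701 ± 726 normalised reads (SD, n = 3), followed by the nucleolar DDX18 (3293 ± 969), DDX17 (2639 ± 385), the nucleolar DDX21 (2371 ± 489), DDX1 (2300.5 ± 841), DDX6 (2297 ± 821) and DHX40 (2176 ± 120.3). DDX3X stood in place 8 with 1811 ± 100.2 normalised reads. The spread between libraries was as large as most steps between neighbours in this order, which therefore cannot be told apart. DDX25 stood last, at 17.2 ± 6.81.

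The spread of the median helicase between libraries was smaller than that of the median gene. Members and all genes were not matched for level, and the part of level in the values below was not tested. The SD between the 3 libraries of a group, as a percentage of their mean and taken as the median over the 6 groups, was 18.6% for the median member, against 29.3% for the median of all genes tested. It was lowest for DHX40, at 8.02%, and highest for DDX60L, at 60.1%, with DDX25 at 51.3% and DDX60 at 51.1%. The highest of the 6 group means was less than 2 times the lowest for 41 of 48 members, or 85.4%, against 64.2% of all genes. The exceptions were DDX25 at 2.83 times, DDX60L at 2.40 times, DDX3X at 2.39 times, DHX16 at 2.33 times, DHX40 at 2.24 times, DDX19B at 2.17 times and DDX39B at 2.12 times.

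DDX3X (ENSG00000215301, GRCh38 chrX:41333284-41364472, plus strand) was measured first, as the target of the guide. In parental cells it stood at 1780.5, 1923 and 1729 normalised reads with AAVS1 and at 861, 844 and 953 with guide 395. The groups did not overlap, and the mean was close to a factor of 2 lower with guide 395. The log2 fold change was -1.03 (SE 0.30, 95% interval -1.66 to -0.40) and did not pass with limma (Benjamini-Hochberg adjusted p = 0.0800). The same difference passed by DESeq2 (adjusted p = 0.0274), and by limma once the replicate 1 libraries labelled DDX3Xoe were left out (adjusted p = 0.0123). By edgeR it did not (adjusted p = 0.0811). Reads came from the 3′ end, and where the guide cuts was not used here, so this level does not measure how many copies of the gene were edited.

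In DDX3Yoe cells DDX3X stood at 1379, 1557 and 1439 normalised reads with AAVS1 and at 878, 739 and 653 with guide 395. These groups did not overlap either, and the log2 fold change was -0.95 (SE 0.30, adjusted p = 1 with limma). In DDX3Xoe cells the values were 668, 1504 and 1162 with AAVS1 and 1416, 716 and 578 with guide 395. The replicate 1 libraries of this line went against their labels: the library labelled AAVS1 was lower than the library labelled guide 395. With all libraries the log2 fold change was -0.33 (SE 0.30, adjusted p = 1 with limma), and without both replicate 1 libraries it was -1.04 (adjusted p = 1 with limma). Every result in DDX3Xoe cells below therefore rests on libraries of which 2 are in doubt. The same 2 libraries also enter the spread of each gene, which the main limma fit estimates over all 18 libraries. The SEs, intervals and limma p-values of that fit in parental and DDX3Yoe cells draw on them too.

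As a share of the reads of all 48 helicases, DDX3X made up 4.53 ± 0.243% in parental cells with AAVS1 and 2.39 ± 0.225% with guide 395 (SD, n = 3). The shares were 3.51 ± 0.228% and 1.87 ± 0.215% in DDX3Yoe cells. In the libraries labelled DDX3Xoe they were 2.71 ± 0.897% and 2.09 ± 0.975%, with the replicate 1 libraries at 1.73% and 3.21%.

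**Figure D1:**
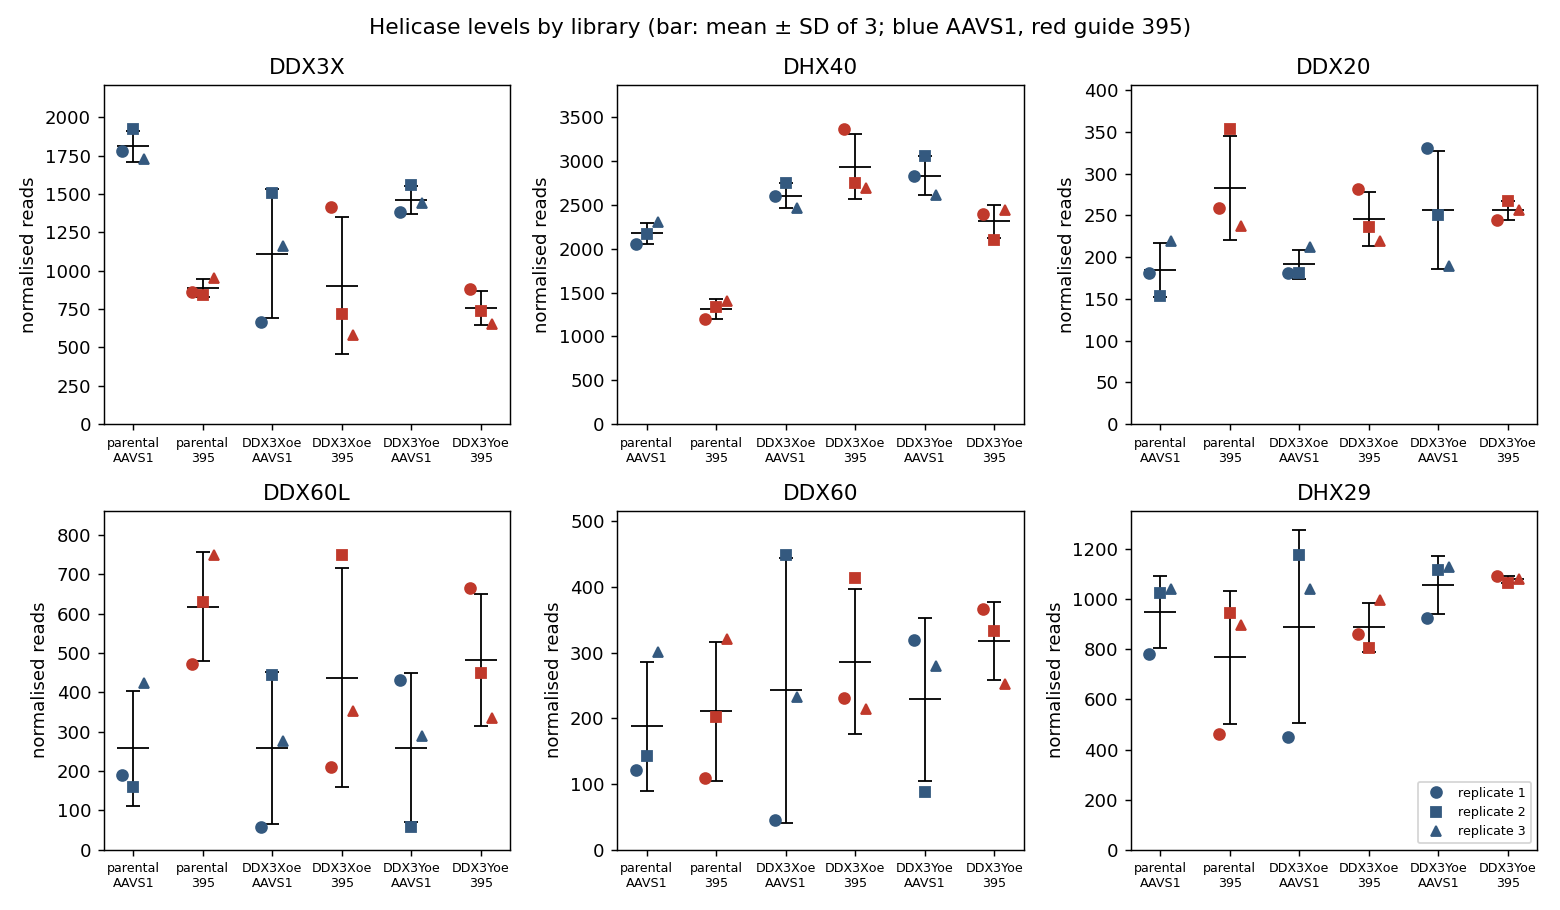
Normalised reads (y axis, from 0) of 6 helicases in the 18 libraries, by group (x axis); symbols give the replicate number, and the bar is the mean ± SD of 3 libraries. DDX3X and DHX40 were lower with guide 395 in all parental and DDX3Yoe libraries, and the replicate 1 libraries labelled DDX3Xoe exchange places for DDX3X.

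No other helicase was called higher with guide 395. In parental cells 0 of 48 members were called higher by limma at an adjusted p under 0.05, where 0.978% of all genes were, and 1 of 48 was called lower, where 0.801% were (1.78% in either direction). At an unadjusted p under 0.05, 3 of 48 members passed in either direction, against 16.9% of all genes. The 3 were DHX40 and DDX3X, both lower, and DDX20, higher. By edgeR 1 member was called and by DESeq2 2 were, DHX40 and DDX3X, all lower.

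The 47 members other than DDX3X lay on both sides of 0 in parental cells, with 26 above and 21 below. Their log2 fold changes ran from -0.73 to 1.37 with a median of 0.12, beside a median of 0.02 over all genes. The 95% interval of the fold change ended below a 2-fold increase for 34 of the 47, where this held for 55.0% of all genes, and below a 1.5-fold increase for 21. The median SE was 0.29 for the members and 0.40 for all genes, and a smaller SE gives a shorter interval. The share of all genes below a 1.5-fold increase was not counted. The 13 members whose interval reached a 2-fold increase were DDX19B, DDX20, DDX25, DDX39B, DDX50, DDX59, DDX60, DDX60L, DHX16, DHX32, DHX34, DHX35 and DHX38. For these the libraries do not limit the change to under 2-fold, and missing the threshold does not show that they kept their level.

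**Figure D2:**
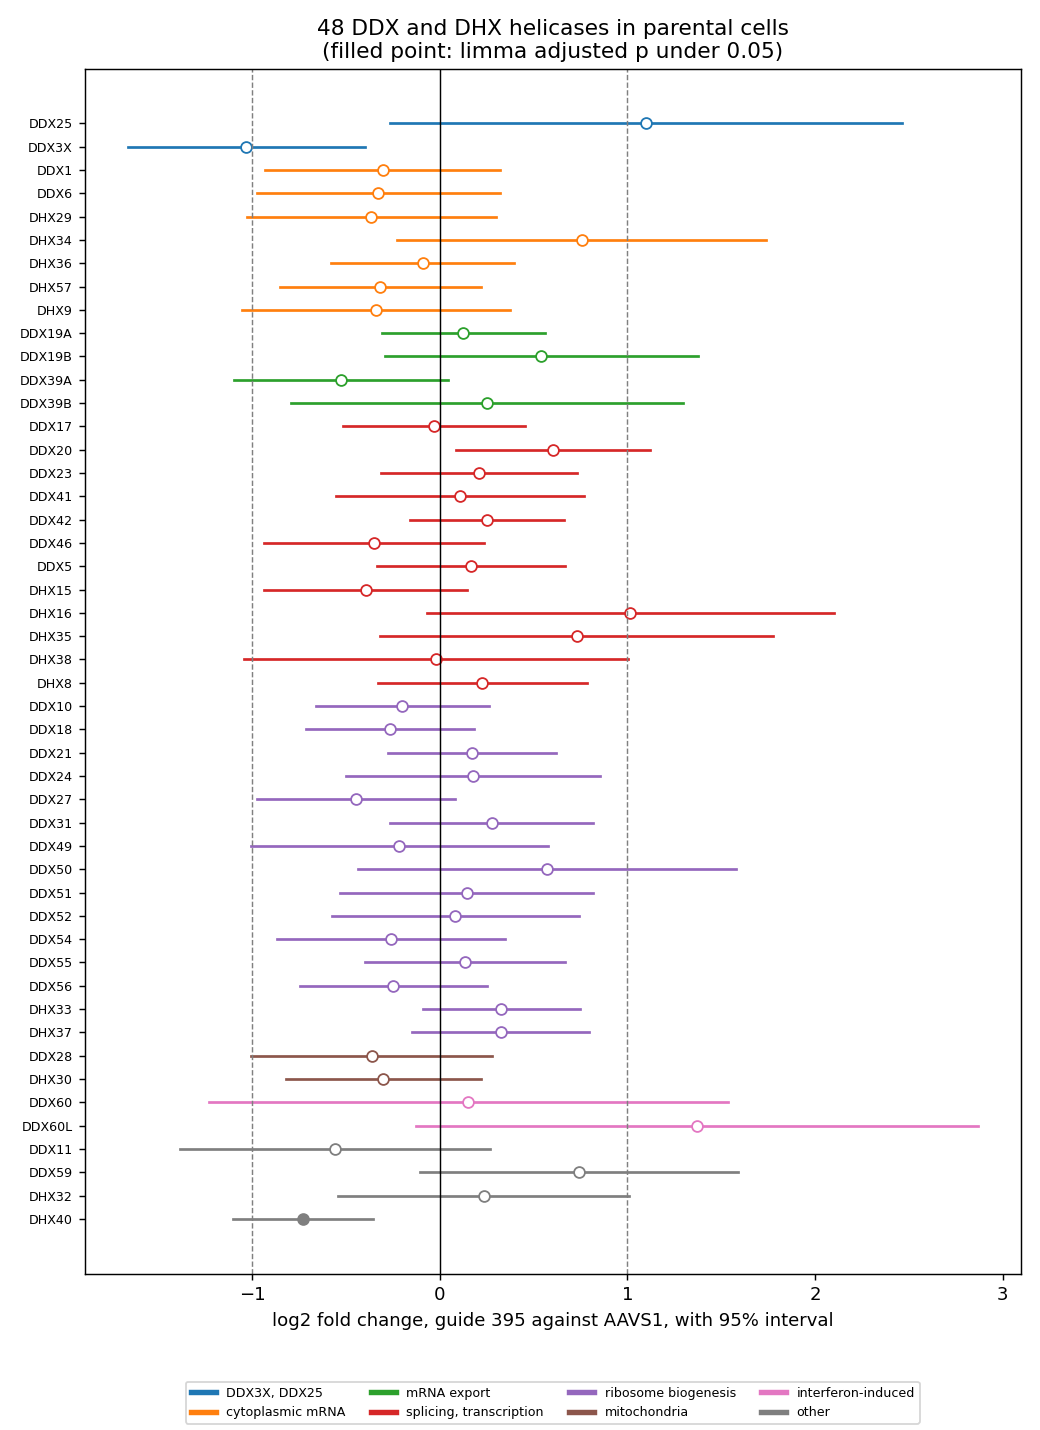
Log2 fold change, guide 395 against AAVS1 in parental cells (x axis), for the 48 helicases (y axis), with the 95% interval of the limma fit and colours for roles; dashed lines mark 2-fold changes. DHX40, at -0.73, is the one filled point, and 34 of the 47 members other than DDX3X have intervals that end below 1.

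The summed level of the other 47 helicases differed in direction between the kinds of cell and, in parental cells, between scalings. In parental cells the sum was 38199 ± 894 normalised reads with AAVS1 and 36220.0 ± 2133 with guide 395 (SD, n = 3). In DDX3Yoe cells it was 40052 ± 994 and 39556 ± 1383, and in DDX3Xoe cells 39475 ± 1830 and 41991 ± 1757. The corresponding differences in DDX3X itself were -925, -702 and -208 normalised reads. The mean sum with guide 395 was thus the lower one in parental and DDX3Yoe cells and the higher one in DDX3Xoe cells. Scaled to reads on genes instead, the parental direction turned, at 4054 ± 382 CPM with AAVS1 and 4185 ± 371 CPM with guide 395, while the sums were 4516 ± 87.5 and 4496 ± 146 CPM in DDX3Yoe cells and 4357 ± 113 and 4844 ± 475 CPM in DDX3Xoe cells. On both scales the libraries of both guides overlapped in each kind of cell, and these sums are given as a description with no test.

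**Figure D3:**
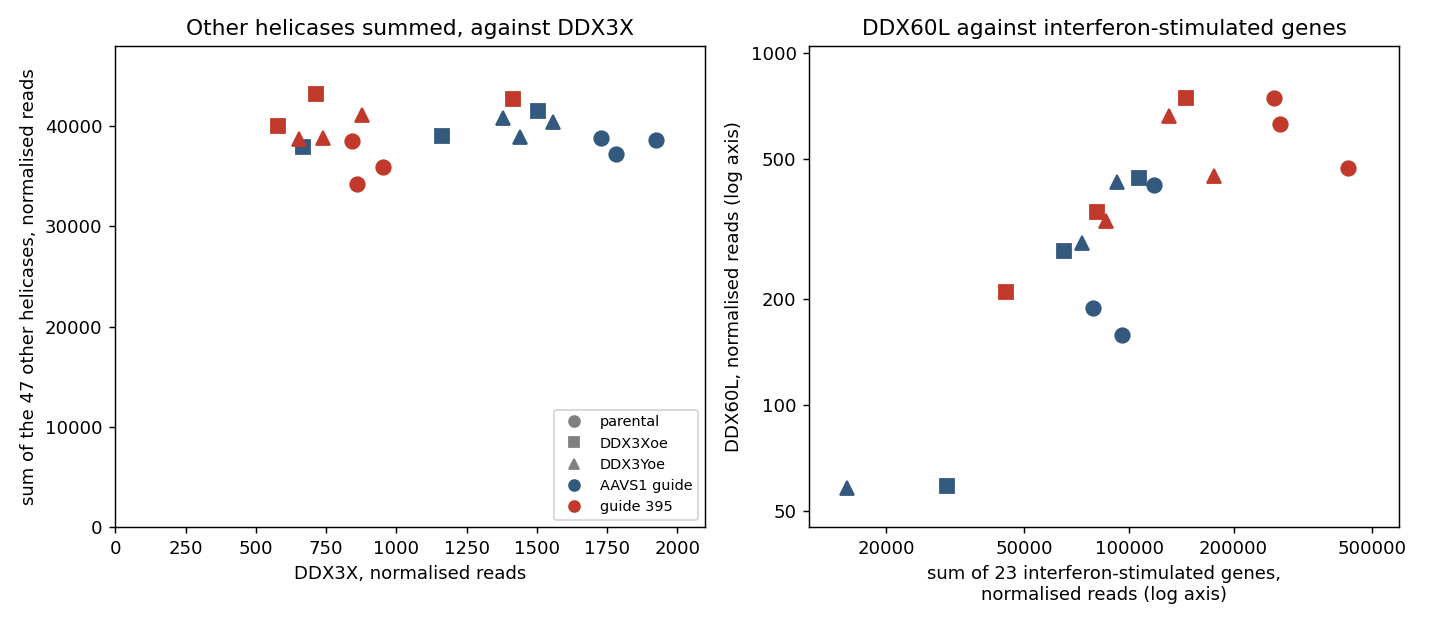
Left, the summed level of the 47 other helicases (y axis, normalised reads from 0) against DDX3X (x axis, normalised reads), 1 point a library; the sums lie between 34252 and 43248 at every level of DDX3X. Right, DDX60L against the summed level of 23 interferon-stimulated genes (both log axes), where the libraries with the lowest sums, 15423 and 29830.3, also have the lowest DDX60L. IFI6 alone held 7073 and 16555 of those sums.

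DHX40 (ENSG00000108406, GRCh38 chr17:59565525-59608345, plus strand), a DEAH-box protein whose role is little known, was the 1 member called. In parental cells it stood at 2059, 2168 and 2299 normalised reads with AAVS1 and at 1193, 1338 and 1408 with guide 395. All libraries with guide 395 lay below all with AAVS1. It fell by 0.73 on the log2 scale (SE 0.18, 95% interval -1.10 to -0.36, adjusted p = 0.0434 with limma). The call was near the threshold: limma no longer gave it when any 1 of the 6 parental libraries was left out (adjusted p 0.0709 to 0.144) or in a fit on the parental groups alone (adjusted p = 0.240).

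In DDX3Yoe cells DHX40 stood at 2825, 3057 and 2612 normalised reads with AAVS1 and at 2399, 2096 and 2443 with guide 395. The groups did not overlap and the values with guide 395 were the lower ones, but the log2 fold change of -0.29 did not pass (SE 0.18, adjusted p = 1 with limma). In DDX3Xoe cells the values were 2599.6, 2747 and 2469.5 with AAVS1 and 3364, 2755 and 2689 with guide 395, a log2 fold change of 0.17 (SE 0.18 and adjusted p = 1 with limma).

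The effect of the guide on DHX40 was 0.90 higher on the log2 scale in DDX3Xoe than in parental cells (SE 0.25), which did not pass in limma (adjusted p = 0.328, unadjusted p = 0.00218) or edgeR (adjusted p = 0.342) and passed in DESeq2 (adjusted p = 0.0146). Without the replicate 1 libraries labelled DDX3Xoe this difference was 0.79 (adjusted p = 0.675 with limma). The difference between DDX3Yoe and parental cells was 0.44 (SE 0.25, adjusted p = 1.00 with limma). Both differences share the parental libraries.

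The control libraries of the lines were also compared, with the parental AAVS1 libraries that the guide comparison uses too. With the AAVS1 guide DHX40 was 0.26 higher on the log2 scale in DDX3Xoe than in parental cells (SE 0.18) and 0.38 higher in DDX3Yoe cells (SE 0.18), with no overlap in either case, and neither passed in limma (adjusted p = 1.00 and 0.999). DDX3X was lower in DDX3Xoe than in parental cells without overlap, by a log2 difference of -0.78 (SE 0.30, adjusted p = 1.00 with limma), or -0.45 without the replicate 1 libraries labelled DDX3Xoe. It was also lower in DDX3Yoe than in parental cells without overlap, by -0.31 (SE 0.30, adjusted p = 0.999 with limma). In both of these comparisons 0 of 48 members were called by limma, where 0% of all genes were, and 1 member had an unadjusted p under 0.05 in each, DDX3X and DHX40, where 0.985% and 2.64% of all genes had one. By edgeR and by DESeq2, 0 members were called in either.

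Another class grouped members by a role in mRNA translation, storage, decay or G-quadruplex unwinding in the cytoplasm, though some also act elsewhere. Of these, 6 of 7 had a log2 fold change below 0 in parental cells and 0 were called. Their median was -0.32, beside 0.02 over all genes. In DDX3Xoe cells 5 of the 7 lay above 0, with a median of 0.10, and in DDX3Yoe cells 3 did, with a median of -0.12.

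DHX29, which helps the small ribosomal subunit scan structured leaders, stood at 783, 1025 and 1042 normalised reads with AAVS1 and 462, 946 and 896 with guide 395 in parental cells, a log2 fold change of -0.36 (SE 0.31). DDX6, which represses and stores mRNAs and promotes their decapping, stood at 3237, 1935 and 1718 with AAVS1 and 2038, 1630.1 and 1639 with guide 395 (-0.33, SE 0.31). DHX9, which unwinds RNA and RNA-DNA hybrids, stood at 933, 369.6 and 592 with AAVS1 and 427, 536 and 439 with guide 395 (-0.34, SE 0.34). In each of these genes the groups overlapped, and for DDX6 and DHX29 a single library of replicate 1 stood apart, with AAVS1 and with guide 395.

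DDX1, part of the tRNA ligase complex, had a log2 fold change of -0.30 (SE 0.30) and DHX36, which unwinds G-quadruplexes, of -0.09 (SE 0.23), with limma adjusted p of 0.657 and 0.887. With all libraries the 95% intervals ended at increases of 1.25-fold for DDX1 and for DDX6, 1.3-fold for DHX9, 1.23-fold for DHX29 and 1.32-fold for DHX36. That of DHX57, named after its values were seen, ended at 1.16-fold. Without single parental libraries the log2 fold changes ran from -0.53 to -0.03 for DDX1, from -0.51 to -0.05 for DDX6 and from -0.68 to -0.009 for DHX9. They ran from -0.55 to -0.03 for DHX29 and from -0.19 to 0.10 for DHX36. The exception in direction with all libraries, also named after its values were seen, was DHX34, a helicase of nonsense-mediated decay. It stood at 101, 62.0 and 84.8 normalised reads with AAVS1 and at 128, 152 and 134 with guide 395, without overlap, at a log2 fold change of 0.76 (SE 0.47 and adjusted p = 0.437 with limma). In DDX3Xoe cells its log2 fold change was -0.44 (SE 0.47) and in DDX3Yoe cells 0.13 (SE 0.47).

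The mRNA export helicases, the pairs DDX19A and DDX19B at the nuclear pore and DDX39A and DDX39B on nascent mRNA, were split, with 3 above 0 and 1 below in parental cells and 0 called. DDX39A stood at 680.1, 1166 and 568 normalised reads with AAVS1 and at 594, 544 and 467 with guide 395, a log2 fold change of -0.52 (SE 0.27 and adjusted p = 0.343 with limma). The highest of these values came from a single library with AAVS1. The members of each pair are similar in sequence, DDX19A and DDX19B share an overlapping transcript, and DDX39B is overlapped on its own strand by a read-through gene, so reads may be split between copies and these values are uncertain.

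The splicing and transcription helicases had 8 of 12 members above 0 in parental cells (9 under quantile normalisation), 0 of them called, with a median log2 fold change of 0.19. DDX20 (ENSG00000064703), a component of the SMN complex that assembles spliceosomal particles, stood at 181, 154 and 219 normalised reads with AAVS1 and at 258, 353 and 237 with guide 395. The groups did not overlap, and the log2 fold change was 0.61 (SE 0.25, 95% interval 0.09 to 1.12, limma unadjusted p = 0.0243, adjusted p = 0.210). DDX20 also did not overlap in DDX3Xoe cells, at 181, 181 and 212 against 282, 236 and 219.5, a log2 fold change of 0.36 (SE 0.25 and adjusted p = 1 with limma). The lowest log2 fold change over the alternative fits in DDX3Xoe cells was 0.22. With the replicate 1 libraries of that line exchanged, the groups would overlap. In DDX3Yoe cells the groups of DDX20 overlapped, at 330.5, 250.3 and 189 against 244, 267 and 256, and the log2 fold change was 0.03 (SE 0.25).

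DHX16, which activates the spliceosome, had a larger difference and a wider spread. It stood at 287, 47.1 and 196 normalised reads with AAVS1 and 419, 254 and 211 with guide 395, a log2 fold change of 1.02 (SE 0.52, 95% interval -0.07 to 2.10, adjusted p = 0.333 with limma). The value of 47.1 came from a single library, replicate 2, and without it the log2 fold change was 0.25. The log2 fold change of DHX35, of the spliceosome, was 0.73 (SE 0.50), and that of DHX15, which takes spliceosomes apart, was -0.39 (SE 0.26), with limma adjusted p of 0.484 and 0.462. For DHX15 the libraries with guide 395, at 275, 235 and 277 normalised reads, all lay below those with AAVS1, at 369, 356 and 311. The most abundant members of this class were close to 0 in parental cells, at 0.17 (SE 0.24) for DDX5 and -0.03 (SE 0.23) for DDX17.

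The ribosome biogenesis helicases, the largest class, had 9 of 15 tested members above 0 and 6 below in parental cells, with 0 called, a median log2 fold change of 0.14 and a range from -0.45 to 0.57. DDX18 had a log2 fold change of -0.26 (SE 0.21) and DDX21 of 0.17 (SE 0.21). DDX27, which acts in large-subunit assembly, had the smallest p among those below 0, at 1116, 1760.2 and 1573 normalised reads with AAVS1 and 882, 1454 and 953 with guide 395, a log2 fold change of -0.45 (SE 0.25 and adjusted p = 0.387 with limma). In DDX3Xoe and DDX3Yoe cells the class had 8 and 7 of 15 above 0, and DDX24 had log2 fold changes of 0.24 and 0.28 there (SE 0.32). DHX37, which acts in small-subunit assembly and was named after its values were seen, stood at 222, 215 and 222 normalised reads with AAVS1 and at 287, 238 and 305 with guide 395 in parental cells. These groups did not overlap, and the log2 fold change was 0.33 (SE 0.22, adjusted p = 0.489 with limma). The mitochondrial helicases DDX28 and DHX30, which act in assembly of the mitochondrial ribosome, had log2 fold changes of -0.36 (SE 0.30) and -0.30 (SE 0.25) in parental cells.

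Of the remaining members, DDX59, a gene linked to ciliary signalling, stood at 68.5, 117 and 152 normalised reads with AAVS1 and 113, 263 and 194 with guide 395 in parental cells. These groups overlapped, and the log2 fold change was 0.74 (SE 0.40, adjusted p = 0.369 with limma). In DDX3Yoe cells DDX59 did not overlap, at 151, 177 and 151 against 239, 186 and 186, a log2 fold change of 0.34 (SE 0.40 and adjusted p = 1 with limma). DDX25 stood at 18.1, 23.6 and 10 normalised reads with AAVS1 and 58.0, 27.5 and 29.2 with guide 395 in parental cells, without overlap, at a log2 fold change of 1.10 (SE 0.65 and adjusted p = 0.411 with limma).

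Counted by overlap alone, 5 of 48 helicases had all parental libraries with guide 395 above all with AAVS1, DDX20, DDX25, DDX60L, DHX34 and DHX37, where 10.7% of all genes did. Another 3 of 48, DDX3X, DHX15 and DHX40, had them all below, where 9.86% of all genes did. In DDX3Xoe cells 1 member lay above, DDX20, and 0 below, against 1.83% and 2.04% of all genes. In DDX3Yoe cells 2 lay above, DDX39B and DDX59, and 2 below, DDX3X and DHX40, against 3.8% and 3.69%. Both parental and DDX3Yoe cells gave DDX3X and DHX40 as the lower ones, 2 of 48 members where 0.959% of all genes were lower in both. DDX3X is the target of the guide, which leaves DHX40 as the 1 other member in that count. In both kinds of cell 0 members were higher, where 1.05% of all genes were. The names in these counts were chosen after the values were seen.

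**Figure D4:**
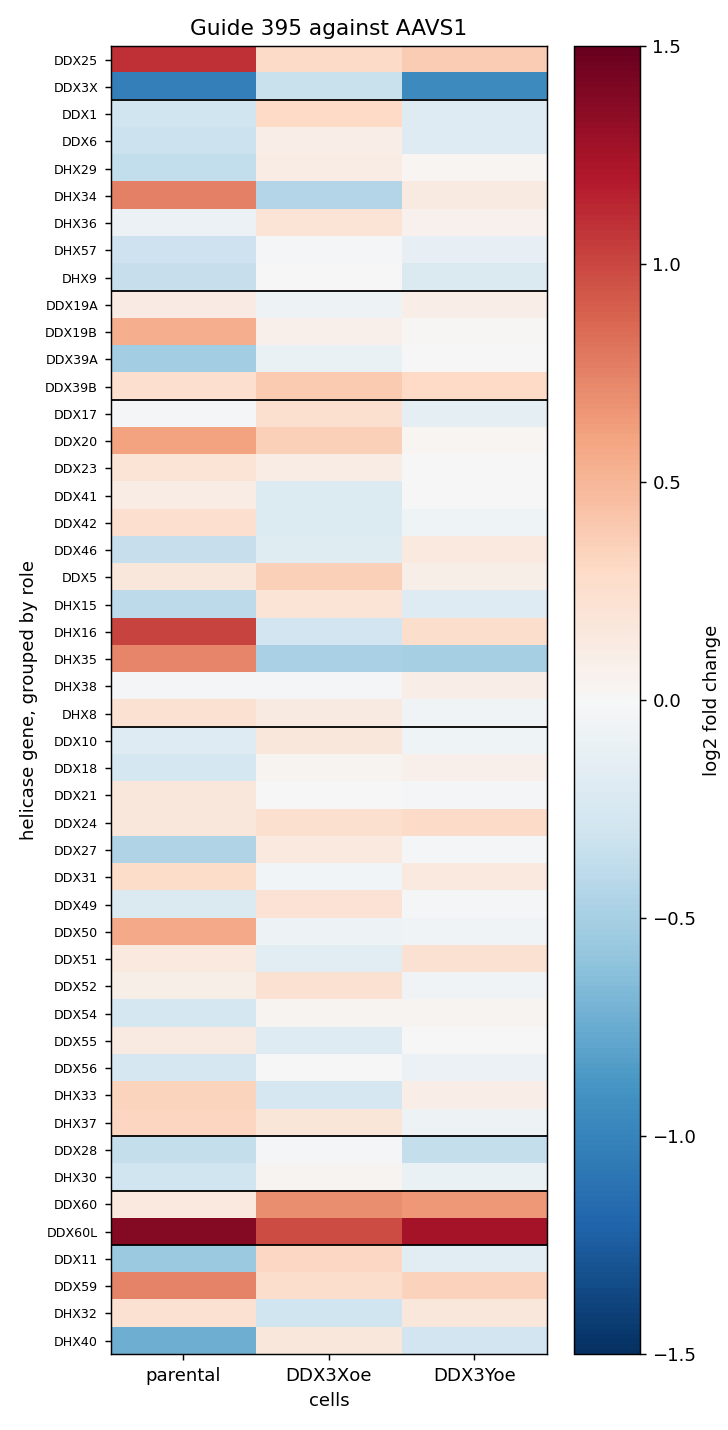
Log2 fold change, guide 395 against AAVS1 (colour), for the 48 helicases (y axis, lines between roles) in the 3 kinds of cell (x axis). DDX60L is above 0 in all 3, at 1.37, 0.98 and 1.25 with all libraries (0.13 and 0.39 in DDX3Xoe and DDX3Yoe cells without 1 AAVS1 library each), and DDX3X below 0 in all 3.

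The interferon-induced members had log2 fold changes above 0 in every kind of cell and were called in none; DDX60 went below 0 in parental and DDX3Xoe cells without certain single libraries. DDX60L (ENSG00000181381) stood in parental cells at 189, 159 and 424 normalised reads with AAVS1 and at 473, 629.6 and 749 with guide 395. The groups did not overlap, and the log2 fold change was 1.37 (SE 0.71, 95% interval -0.12 to 2.87, adjusted p = 0.346 with limma). In DDX3Yoe cells it stood at 431, 58.1 and 289.6 against 664, 449.5 and 335, a log2 fold change of 1.25 (SE 0.71 and adjusted p = 1 with limma) that was 0.39 without AAVS1 replicate 2, the library at 58.1. In DDX3Xoe cells it stood at 59.1, 443 and 275 against 210.1, 749 and 353, a log2 fold change of 0.98 (SE 0.71 and adjusted p = 1 with limma) that was 0.56 without both replicate 1 libraries and 0.13 without the replicate 1 library labelled AAVS1 alone.

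DDX60 (ENSG00000137628), whose promoter is shown above, stood in parental cells at 121, 143 and 300.1 normalised reads with AAVS1 and at 109.9, 202 and 320.2 with guide 395. These groups overlapped almost wholly, and the log2 fold change was 0.15 (SE 0.66, adjusted p = 0.939 with limma). Its log2 fold changes were 0.69 in DDX3Xoe and 0.65 in DDX3Yoe cells (SE 0.66), with limma adjusted p of 1 in both. The low values of both genes fell in the same libraries: the library labelled DDX3Xoe AAVS1 replicate 1 held 45.3 normalised reads of DDX60 and 59.1 of DDX60L, and DDX3Yoe AAVS1 replicate 2 held 87.7 and 58.1.

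A list of 23 interferon-stimulated genes varied across the same libraries. Its summed level was 78911 to 117924 normalised reads in parental cells with AAVS1 and 260594 to 426738 with guide 395. IFI6 alone held 43776 to 66484.5 of these reads with AAVS1 and 131526 to 265631 with guide 395. In parental cells 22 of 23 genes were above 0, and 4 were called higher (ISG20, IFIT2, IRF7 and IFI27), where 0.978% of all genes were. The RIG-I-like receptors left out by the naming rule were all above 0 in parental cells and 0 of 3 were called. IFIH1, the sensor MDA5, stood at 517, 371 and 1378 normalised reads with AAVS1 and 2772, 3013 and 2971 with guide 395, a log2 fold change of 2.18 (SE 0.63 and adjusted p = 0.0780 with limma), and DHX58, the receptor LGP2, had one of 1.20 (SE 0.49, adjusted p = 0.216). The part of the interferon-stimulated genes in the values of DDX60L was not tested.

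A list of 17 proliferation genes had lower sums in the same parental libraries, at 12745 to 22772 normalised reads with AAVS1 and 6046 to 9285 with guide 395. Of its genes 16 lay below 0 and 0 were called by limma. In DDX3Yoe cells the sums of replicates 1, 2 and 3 were 32446, 21159 and 9618 with AAVS1 and 28134.5, 16392 and 5917 with guide 395. In DDX3Xoe cells they were 17583, 25136 and 10959 with AAVS1 and 28400, 17872 and 8849 with guide 395. The part of the parental difference in the values of DHX40 and the other helicases was not tested.

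Helicases outside the DDX and DHX names were read from a list of 21, of which 18 passed the filter. In parental cells 9 lay above 0 and 9 below, 0 were called higher and 1 was called lower, where 0.978% and 0.801% of all genes were. That gene was SNRNP200 (GRCh38 chr2:96274336-96305515, minus strand), the spliceosomal helicase that unwinds the U4 and U6 snRNAs. It stood at 2157, 1954 and 1669 normalised reads with AAVS1 and at 971, 1021 and 1034 with guide 395, and fell by 0.93 on the log2 scale (SE 0.18, adjusted p = 0.0173 with limma). In DDX3Yoe cells it stood at 1992, 2071 and 1862 against 1612, 1454 and 1777, without overlap, where 3.69% of all genes lay wholly below. In DDX3Xoe cells it stood at 2078, 1597 and 1904 against 1975, 2126 and 1699.9. How the parental call of SNRNP200 holds in the other fits or without single libraries is not given here.

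The translation initiation helicases EIF4A1 and EIF4A2, which work beside DDX3X on the leader of an mRNA, pointed in opposite directions in parental cells. EIF4A2 stood at 1640.2, 1268 and 1069.9 normalised reads with AAVS1 and 2869, 1679 and 1439 with guide 395, a log2 fold change of 0.55 (SE 0.31 and adjusted p = 0.390 with limma). EIF4A1 stood at 195, 299 and 215 against 127, 282 and 107, a log2 fold change of -0.57 (SE 0.33 and adjusted p = 0.402 with limma), and a read-through gene on the same strand makes its count uncertain. Both pairs of groups overlapped.

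Partners of these helicases in translation initiation, a list with 19 tested genes, had 4 above 0 and 15 below in parental cells, a median log2 fold change of -0.20, and 0 called. EIF3K, a subunit of initiation factor eIF3, came nearest to a call, with a log2 fold change of -0.95 (SE 0.27 and adjusted p = 0.0733 with limma), followed by another subunit, EIF3B, at -0.47 (adjusted p = 0.203).

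In the cells with a transgene, 0 of 48 helicases were called by limma with guide 395, where 0% of all genes were called in either line. At an unadjusted p under 0.05, 0 members passed in DDX3Xoe cells, where 2.07% of all genes did, and 1 passed in DDX3Yoe cells, DDX3X, where 1% did. EdgeR and DESeq2 called 0 members in both. Of the 47 members other than DDX3X, the 95% interval ended below a 2-fold increase for 40 in DDX3Xoe and 39 in DDX3Yoe cells, where this held for 63.7% and 60.7% of all genes. In both lines the median SE was again 0.29 for the members and 0.40 for all genes. In DDX3Xoe cells 28 of the 47 lay above 0, with a median of 0.08, and in DDX3Yoe cells 24 did, with a median of 0.00. In DDX3Xoe cells the most abundant member, DDX5, stood at 4057, 3019.5 and 3030.5 normalised reads with AAVS1 and at 4486, 5146 and 3372 with guide 395, a log2 fold change of 0.36 (SE 0.24) between groups that overlapped. There DDX17 had a log2 fold change of 0.24 (SE 0.23), the nucleolar DHX33 of -0.25 (SE 0.20) and the splicing helicase DDX42 of -0.20 (SE 0.20). In DDX3Yoe cells DDX51, a ribosome biogenesis member, had a log2 fold change of 0.23 (SE 0.32), DDX28 of -0.36 (SE 0.30) and DHX15 of -0.20 (SE 0.26). The largest log2 fold changes among the 47 were those of DDX60L, and the lowest were -0.48 and -0.49, both of DHX35.

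The effect of the guide on the helicases was then compared between lines. For DDX3Xoe against parental cells limma called 0 of 48 members, where 0.046% of all genes were called (0.0197% higher and 0.0263% lower), and 1 member, DHX40, had an unadjusted p under 0.05, where 8.14% of all genes had one. For DDX3Yoe against parental cells limma called 0 of 48, where 0% of all genes were called, and 0 members had an unadjusted p under 0.05, against 4.84% of all genes. By edgeR 0 members were called in either, and by DESeq2 1 in the first, DHX40, and 0 in the second.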

How the data were processed

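The deposited table holds a normalised signal per gene: the authors divided 3′ read counts by a size factor for each library, as read from the deposited values, which all came out as whole reads within 0.01 once the factor was recovered (100% of values). Per the submitters' processing notes, the tools were limma, featureCounts 1.5.1, STAR 2.5.2b and RSEM 1.3.0, on GRCh38, without their roles. No source used here gives the strand setting or annotation. Symbols came from GENCODE release 29, which matched 57446 of 58050 identifiers. Values were tested as log2(value + 1) with limma 3.58.1 (R 4.3.3, intensity trend, 6 group means over all 18 libraries) for genes that reached 10 in 3 or more libraries. Fold changes are on that scale, which understates those of low genes. Benjamini-Hochberg adjustment ran over 15228 genes in each of 7 comparisons, and an adjusted p under 0.05 made a call. The limma step was tested on simulated data. Alternatives were edgeR 4.0.16 and DESeq2 1.42.0 on the recovered reads, other pseudocounts, filters and scalings, no trend, fits on the compared groups, replicate blocks, and fits without single libraries or without both replicate 1 libraries labelled DDX3Xoe. The members, gene lists and tests were chosen with earlier results of these data known. The text names DDX3X, DDX3Y, called members, the 5 smallest p in each direction in each guide comparison and the 5 most abundant members. It also names DDX1, DDX6, DHX9, DHX29 and DHX36 of the cytoplasmic mRNA class, EIF4A1, EIF4A2, and the called or up to 2 first genes of each pathway list. A part of the rule based on protein identity was not used here. Members described outside the rule were picked after their values were seen. Whether same-numbered libraries deviate together was checked: they did in parental cells (correlations over genes 0.570, 0.201 and 0.280), but not for every number in DDX3Xoe (0.231, -0.03 and 0.300) and DDX3Yoe cells (0.0745, 0.114 and 0.238). Replicates of a group differed by 22.0 to 154 times the chi-square expected from counting, so none was a copy. Precision rests on 3 libraries a group; intervals of counts cover counting error only.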

Additional observations from a re-analysis of the deposited data

How the results depend on the processing

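The count of helicases called with guide 395 in parental cells, 1 by limma, was 0 with no filter, median-centring, quantile normalisation, no intensity trend or the compared groups alone. It was 2 by DESeq2 and 2 without both replicate 1 libraries labelled DDX3Xoe. Without single libraries it ranged from 0 to 0. For the difference of the guide effect between DDX3Xoe and parental cells DESeq2 called 1. The replicate block, over all libraries or within each line, left every count of called helicases as it was (1 in parental cells), while over all genes the parental count went from 271 to 677; it was 909 by DESeq2, 159 with no filter, 83 with the compared groups alone and 60 to 366 without single libraries. Directions turned for DDX60 in parental cells, from -0.22 to 0.55 on the log2 scale without single libraries (-0.11 without AAVS1 replicate 1). They also turned for DHX36 there, from -0.19 to 0.10 (0.05 without AAVS1 replicate 3). The same held for DDX60 in DDX3Xoe cells, from -0.24 to 1.40 and at -0.12 without both replicate 1 libraries. It also held for DHX15 in DDX3Yoe cells, from -0.40 to 0.0025. The difference of the guide effect on DDX3X was -0.0071 between DDX3Xoe and parental cells without both replicate 1 libraries, and -0.036 to 0.18 between DDX3Yoe and parental cells. The cause was not tested. With 3 libraries a group, increases under 2-fold were not detectable for many members.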

Other observations

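In parental cells the library with the same replicate number was the highest under both guides for 27 of 48 helicases (56.2%), beside 49.3% of all genes. For 12 of them that was replicate 1: DDX5, DDX6, DDX17, DDX19A, DDX19B, DDX46, DDX50, DDX55, DHX16, DHX32, DHX35 and DHX38. The corresponding counts were 23 of 48 in DDX3Xoe cells (47.9%, beside 39.6%) and 21 of 48 in DDX3Yoe cells (43.8%, beside 39.1%). These are values from the same libraries with no test.

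EIF4A1, the helicase of the cap-binding complex, did not overlap in DDX3Xoe cells, at 226, 228 and 282 normalised reads with AAVS1 and 517, 597 and 314 with guide 395. The log2 fold change was 0.91 (SE 0.33) and did not pass with limma (unadjusted p = 0.0126, adjusted p = 1). In DDX3Yoe cells the log2 fold change of EIF4A1 was -0.01 (SE 0.33). In DDX3Xoe cells 1.83% of all genes had all libraries with guide 395 above all with AAVS1. The EIF4A1 values of 226 and 517 came from the replicate 1 libraries in doubt. With those libraries exchanged, the groups would overlap.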
